A study of Mus musculus with 2 samples.

Results

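Ifng, which encodes the type 1 cytokine IFN-γ, was followed together with 7 genes that direct or enable its production across the lymphoid cells of kidneys with nephrotoxic serum nephritis (NTN). The 8 genes were chosen by name and role, with earlier results of these data known. All 8 were found among the 20299 genes of the count matrix. They comprise the cytokine itself, the transcription factors Tbx21, Eomes, and Stat4, the IL-12 receptor chains Il12rb1 and Il12rb2, and the IL-18 receptor chains Il18r1 and Il18rap.

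IFN-γ is made mainly by T cells and NK cells, and it activates macrophages and induces antigen presentation in tissue cells. IL-12 binds a receptor made of the Il12rb1 and Il12rb2 products and signals through STAT4, whereas IL-18 binds a receptor made of the Il18r1 and Il18rap products and signals through MyD88. T-bet, the product of Tbx21, and its relative eomesodermin bind the Ifng locus and set the type 1 program of CD4+ T cells, CD8+ T cells, and NK cells.

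C57BL/6 mice that were 8 weeks old were sensitized with 200 μg of sheep IgG in Freund's adjuvant and, per the labels, received 2 μL of nephrotoxic serum per g of body weight 4 days later. Both the WT mice and the Vsir-/- mice, which lack the immune checkpoint VISTA, were given NTN, so no library describes an uninjured kidney. Kidneys were digested with liberase at 0.2 mg/mL for 30 minutes at 37°C, and 1 droplet-based single-cell library was made from each genotype. The labels describe the WT library as sorted CD45+ cells and the Vsir-/- library as unsorted kidney cells, whereas the methods of the study describe a CD45+ sort and a higher serum dose. The number of mice behind each library is not given in the sources used here, and with 1 library per genotype no test between genotypes was possible. Each interval below is at the 95% level and covers counting error only.

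Median depth was 4727 unique molecular identifiers (UMIs) over 5470 WT cells and 6673 UMIs over 1844 Vsir-/- cells. Lymphoid clusters, as named by the authors, took 4140 and 1062 of these cells. Vsir itself had 4278 UMIs (130.4 CPM, counts per 1000000 UMIs) in the WT library and 8 (0.430 CPM) in the Vsir-/- library. UMIs of Ptprc, which encodes CD45, were found in 93.9% of the WT and 60.8% of the Vsir-/- lymphoid cells, and a list of 20 kidney tubule genes summed to 191 and 10031 CPM. Of 5 cell barcodes that occurred in both libraries, 4 were in a lymphoid cluster.

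Some cluster names went against their markers. The clusters named EM-like (effector memory) or non-EM-like CD4+ and CD8+ T cells are written EM or non-EM below. The EM CD4+ cluster held 489 WT cells, of which 92 had Cd4 but no Cd8 UMIs and 93 had Cd8 but no Cd4 UMIs. In the Vsir-/- library, these numbers were 76 and 40 of 244 cells. The EM CD8+ cluster had Cd8 UMIs in 52.8% of WT and 53.6% of Vsir-/- cells, and UMIs of a γδ T cell list in 59.9% and 42.9%. Of the 349 Vsir-/- cells in the non-EM CD4+ cluster, 233 had no T cell transcript. Those 233 cells had a Ptprc UMI in 6.44% and the tubule list at 19786 CPM. The cluster named NKT, with 94 WT and no Vsir-/- cells, had UMIs of a B cell list in 80.9% of its cells, and that list reached 2473 CPM against 5678 CPM in WT B cells. Of the 88 Vsir-/- cells in the B cell cluster, 45 had a B cell marker UMI. Neutrophils, which had their own markers in 100% of cells of both libraries, therefore served as the second group that should lack most of these genes. They also had T cell list UMIs in 26.9% of WT and 5.06% of Vsir-/- cells (451 and 55.3 CPM). The part of T cell transcripts in the neutrophil values was not tested.

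Ifng was at a like level in 4 WT clusters. It stood at 188 CPM in NK cells (interval, 174 to 203), 175 CPM in EM CD4+ cells (159.7 to 191), 171 CPM in EM CD8+ cells (144 to 202), and 156 CPM in the NKT cluster (122 to 197), and these neighbors did not differ beyond their intervals. The non-EM CD4+ and CD8+ clusters, which hold the less activated T cells, had 1.57 and 2.96 CPM. WT B cells had 4.31 CPM and WT neutrophils 12.5 CPM, so the non-EM T cells were no higher than cells that should lack the gene. Proliferating cells, with 216 CPM, are described separately and are left out of the orders of WT levels given for each gene.

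The proximal Ifng promoter is shown because Ifng is the gene on which the comparison of genotypes turns, and the promoters of Il12rb2 and Il18r1 are shown because they hold the same letters. Promoter windows in the RefSeq table (build GRCm38.p6), each with 250 bases before and 50 after a gene start, matched 7 of the 8 genes with 10 windows. They were searched on both strands for TTCNNNGAA, the motif of STAT factors, and for TCACAC, a core of T-box sites such as those bound by T-bet. Capitals below mark these matches, and each sequence runs 5′ to 3′ on the strand of its gene.
Ifng, chr10:118440796-118441095, plus strand: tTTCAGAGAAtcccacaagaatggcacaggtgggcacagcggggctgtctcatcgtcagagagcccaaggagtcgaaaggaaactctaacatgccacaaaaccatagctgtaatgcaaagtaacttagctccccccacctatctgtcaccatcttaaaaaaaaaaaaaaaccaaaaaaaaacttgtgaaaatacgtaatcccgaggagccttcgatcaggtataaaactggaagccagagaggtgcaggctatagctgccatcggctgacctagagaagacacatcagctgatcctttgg
Il12rb2, chr6:67376139-67376438, minus strand: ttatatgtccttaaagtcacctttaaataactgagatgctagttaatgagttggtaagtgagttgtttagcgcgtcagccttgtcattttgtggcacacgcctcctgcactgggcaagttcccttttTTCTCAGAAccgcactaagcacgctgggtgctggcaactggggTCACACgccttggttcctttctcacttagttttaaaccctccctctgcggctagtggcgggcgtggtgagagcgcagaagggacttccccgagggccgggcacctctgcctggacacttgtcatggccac
Il18r1, the furthest downstream of its 3 listed starts, chr1:40465756-40466055, plus strand: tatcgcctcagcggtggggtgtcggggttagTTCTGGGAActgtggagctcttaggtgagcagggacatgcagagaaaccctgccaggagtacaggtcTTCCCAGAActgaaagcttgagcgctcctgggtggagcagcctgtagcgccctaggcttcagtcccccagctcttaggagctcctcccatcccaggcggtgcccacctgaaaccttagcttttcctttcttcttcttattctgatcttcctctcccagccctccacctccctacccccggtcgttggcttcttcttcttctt
The STAT letters occurred in 3 of the 10 windows, namely these 3, and in 8.30% of all 32851 promoter windows of that length. The T-box letters occurred in the Il12rb2 window only, where 14.5% of all windows held them. A match of letters describes the window and is not a site shown to be bound.

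Tbx21 was highest in the clusters with NK receptor transcripts. Its WT level was 228 CPM in EM CD8+ cells (interval, 197 to 263) and 179 CPM in NK cells (166 to 193), followed by 132 CPM in the NKT cluster and 83.5 CPM in EM CD4+ cells. UMIs of 5 NK genes were found in 97.0% of WT EM CD8+ cells and 55.6% of WT EM CD4+ cells, but in 9.78% of the EM CD4+ cells that had Cd4 and no Cd8 UMIs. In those Cd4-only cells Tbx21 was at 25.1 CPM. B cells (4.31 CPM) and neutrophils (3.63 CPM) gave the background.

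Eomes followed another order. NK cells had 156 WT CPM (144 to 169), and the NKT cluster had 52.0 CPM. EM CD8+ cells (41.3 CPM) and non-EM CD8+ cells (37.9 CPM) did not differ beyond their intervals, although Tbx21 was at 9.29 CPM in the latter. Eomes was at 26.4 CPM in EM CD4+ cells and at 7.13 CPM or less in γδ T cells and type 2 innate lymphoid cells (ILC2).

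Stat4, the signal transducer of IL-12, was the most widely spread of the 8 genes. Its WT levels were 169 CPM in EM CD8+ cells, 149.9 CPM in EM CD4+ cells, and 137 CPM in NK cells. It was at 104 CPM in ILC2 and 99.4 CPM in non-EM CD8+ cells. B cells and neutrophils were at 72.4 and 38.7 CPM, well above the 4.31 and 3.63 CPM that Tbx21 had there. Clusters with little Ifng thus had Stat4, and 20.4% of WT B cells had a Stat4 UMI.

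The chains of the IL-12 receptor were spread unequally. Il12rb2, the chain that recruits STAT4, was at 79.3 WT CPM in NK cells, 58.5 in the NKT cluster, 54.7 in EM CD8+ cells, and 29.6 in EM CD4+ cells. Il12rb1, which is shared with the IL-23 receptor, was highest in γδ T cells at 78.4 CPM (49.1 to 119), followed by ILC2 at 42.1 CPM and EM CD4+ cells at 31.0 CPM. In NK cells it was at 16.5 CPM. The γδ T cells of both libraries had 0 Il12rb2 UMIs in 46 and 28 cells, which allowed up to 10.7 and 16.9 CPM.

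The IL-18 receptor chains were also divided by cell type. Il18r1, the ligand-binding chain, was at 417 WT CPM in γδ T cells (345 to 499.6), 147 CPM in EM CD4+ cells, 99.8 CPM in NK cells, and 35.2 CPM in EM CD8+ cells. Il18rap, the accessory chain, was at 339.8 CPM in NK cells, 309.8 CPM in EM CD8+ cells, and 208 CPM in the NKT cluster, against 35.6 CPM in γδ T cells. The EM CD8+ cells thus had more Il18rap than Il18r1, and the γδ T cells more Il18r1 than Il18rap. WT B cells had 2.30 and 4.02 CPM of Il18r1 and Il18rap.

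NK cells held most of the lymphoid UMIs of 3 regulators in the WT library. Their share was 57.8% for Il12rb2, 55.4% for Il18rap, and 53.7% for Eomes, and 46.7% for Tbx21. They held 37.4% of the Ifng UMIs, 22.6% of the Stat4 UMIs, and 27.1% of the Il18r1 UMIs. The EM CD4+ cluster held the greatest part of the Il12rb1 UMIs, 32.7% against 23.3% in NK cells.

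**Figure D1:**
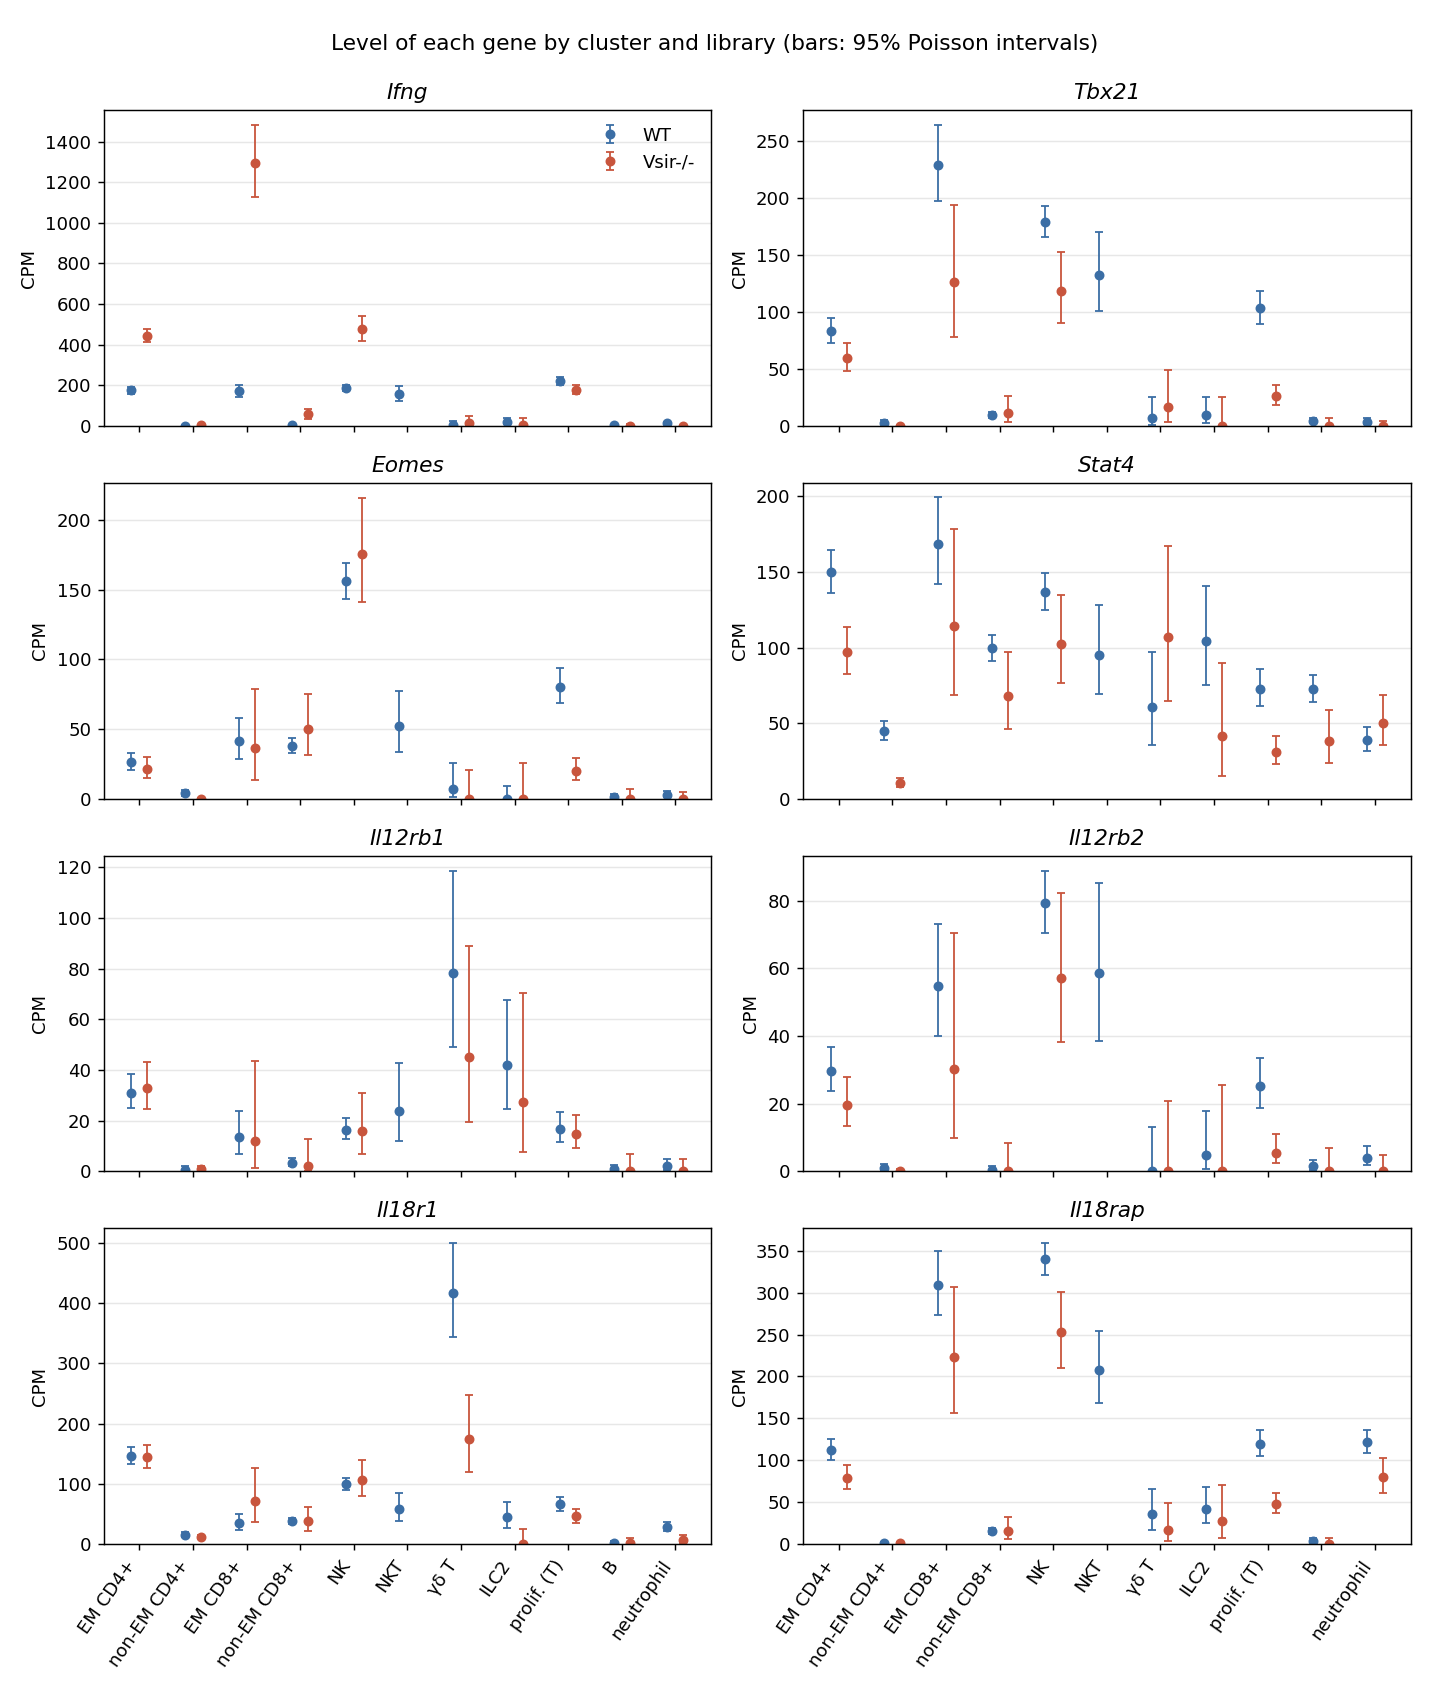
Level of each of the 8 genes (CPM, linear axes that differ between panels) by cluster in the WT library (blue) and the Vsir-/- library (red), with 95% Poisson intervals as bars. Ifng is higher in the Vsir-/- library in the EM CD4+, EM CD8+, and NK clusters, whereas Tbx21 and Il18rap have lower values there, with an interval of the Il18rap ratio that crosses 0 in EM CD8+ cells; "prolif. (T)" are proliferating cells with a T cell transcript, and the NKT cluster has no Vsir-/- cells.

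The first comparison asked whether the genes that govern Ifng stood higher where Ifng did in Vsir-/- mice. In EM CD4+ cells Ifng had 490 UMIs (175 CPM) in the WT and 701 UMIs (444 CPM) in the Vsir-/- library, a log2 ratio of 1.35 (interval, 1.18 to 1.52). None of the 7 regulators was past 2-fold, and 6 of 7 had a log2 ratio below 0. Their median was −0.48 against 0.00 for the 9751 genes that had 20 or more UMIs there over both libraries. Of those genes, 49.97% had a log2 ratio below 0. Ifng was thus the 1 of 8 genes past 2-fold upward and none was past it downward, where 10.4% of all tested genes were past 2-fold upward and 5.41% downward.

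Single regulators of the EM CD4+ cluster fell into those with intervals below 0 and those with intervals across it. Stat4 had 420 and 153 UMIs (149.9 and 97.0 CPM), a log2 ratio of −0.62 (−0.90 to −0.36). Tbx21 had 234 and 94 UMIs (83.5 and 59.6 CPM; log2 ratio, −0.48; −0.85 to −0.14). Il18rap had 315 and 125 UMIs (112 and 79.2 CPM; log2 ratio, −0.50; −0.81 to −0.20). These 3 genes were lower in the Vsir-/- library beyond counting error. Il18r1, with 147 and 144 CPM, had a log2 ratio of −0.03 (−0.27 to 0.21), and Il12rb1, with 31.0 and 33.0 CPM, one of 0.09 (−0.44 to 0.60). Eomes (26.4 and 21.6 CPM) and Il12rb2 (29.6 and 19.7 CPM) had intervals that crossed 0.

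The makeup of the cluster moved with these values. NK genes were found in 55.6% of its WT and 27.0% of its Vsir-/- cells (805 and 217 CPM), with none of the 5 genes at 0 in either library. Among cells with Cd4 and no Cd8 UMIs, which had NK genes in 9.78% and 5.26% of cells, Tbx21 had 15 and 14 UMIs (25.1 and 26.9 CPM), a log2 ratio of 0.10 (−1.07 to 1.25). Stat4 had 40 and 42 UMIs there, a log2 ratio of 0.26 (−0.39 to 0.93). The lower Tbx21 and Stat4 of the whole cluster were therefore not seen in its Cd4-only cells. The Tbx21 interval there still included the −0.48 of the whole cluster. Ifng, with 67 and 211 UMIs (112 and 405 CPM), had a log2 ratio of 1.84 (1.45 to 2.27) in the same cells. In the cells with Cd8 and no Cd4 UMIs, Ifng was at 159 and 303 CPM, a log2 ratio of 0.94 (0.51 to 1.36) that was under 2-fold, and Tbx21 at 96.6 and 55.2 CPM. Stat4 was at 140 and 134 CPM there, a log2 ratio of −0.05 (−0.64 to 0.49), so its lower level was not seen in these cells either. That interval still included the −0.62 of the whole cluster. These sets were only a part of the cluster, with 92 Cd4-only and 93 Cd8-only of 489 WT cells and 76 and 40 of 244 Vsir-/- cells. They held 40 and 93 of its 420 WT Stat4 UMIs and 42 and 39 of its 153 Vsir-/- Stat4 UMIs. The other cells, with UMIs of neither or both coreceptors, were not compared on their own. The part of the NK transcripts in the cluster values was not tested.

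EM CD8+ cells had the highest Ifng level of all clusters in the Vsir-/- library, resting on 28 cells. WT cells, 197 in number, had 141 Ifng UMIs (171 CPM), and the Vsir-/- cells had 215 (1295 CPM), a log2 ratio of 2.92 (2.61 to 3.24) that was above that of 99.1% of 5521 tested genes. Tbx21 had 188 and 21 UMIs (228 and 126 CPM), a log2 ratio of −0.82 (−1.58 to −0.20). Il18rap (309.8 and 223 CPM), Stat4 (169 and 114 CPM), Il12rb2 (54.7 and 30.1 CPM), and Eomes (41.3 and 36.1 CPM) had log2 ratios below 0 with intervals that crossed it. Il18r1 alone among the regulators was on the side of Ifng, with 29 and 12 UMIs (35.2 and 72.3 CPM) and a log2 ratio of 1.07 (−0.07 to 2.05). Il12rb1, with 11 and 2 UMIs, fell under the limit of 20.

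Of the 7 genes with at least 20 UMIs in this cluster, Ifng and Il18r1 were past 2-fold upward and none downward, against 6.03% and 9.98% of all tested genes. The regulators had a median log2 ratio of −0.49, and all tested genes one of −0.02. NK genes were found in 97.0% of the WT and 57.1% of the Vsir-/- cells (2057 and 367 CPM), and their part in the regulators' values was not tested. The Vsir-/- cells also differed in coreceptors, since 6 of the 28 had Cd4 but no Cd8 UMIs and these 6 held 123 of the 215 Ifng UMIs. Among cells with Cd8 and no Cd4 UMIs (102 WT and 15 Vsir-/-), Ifng was at 183 and 693 CPM, a log2 ratio of 1.93 (1.42 to 2.42), so the Vsir-/- level was 3.80 times the WT level in place of 7.55 times. Tbx21 (208 and 93.9 CPM; log2 ratio, −1.07) and Il18rap (283 and 141 CPM; −0.96) were lower in these cells. Il18r1 was no longer past 2-fold there, with 20 and 5 UMIs and a log2 ratio of 0.55 (−1.32 to 1.91). Il12rb2 had 22 and 1 UMIs and a log2 ratio of −1.46, with an interval that crossed 0.

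NK cells, which had NK genes in 100% of cells of both libraries, had Cd8 UMIs in 6.73% and Cd4 UMIs in 4.38% of WT cells and neither in the Vsir-/- cells. The T cell list was nevertheless found in most of them, with UMIs in 85.0% of WT and 76.1% of Vsir-/- cells (1120 and 481 CPM). Its part in the values of this cluster was not tested. The WT library had 707 Ifng UMIs (188 CPM) over 594 cells, and the Vsir-/- library had 241 (475 CPM) over 67 cells, a log2 ratio of 1.34 (1.12 to 1.55). Tbx21 had 673 and 60 UMIs (179 and 118 CPM; log2 ratio, −0.59; −1.0 to −0.21), and Il18rap had 1277 and 128 UMIs (339.8 and 253 CPM; log2 ratio, −0.42; −0.70 to −0.16). Both were lower in the Vsir-/- library beyond counting error, and the 5 NK genes as a list were lower as well, at 4834 and 3512 CPM. Stat4 (137 and 103 CPM) had a log2 ratio of −0.40 whose upper bound lay near 0. In a single draw of 1000 UMIs from each cell the ratio was 0.46.

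Eomes, Il18r1, and Il12rb1 of NK cells had log2 ratios near 0 as deposited. Eomes, which acts with T-bet in NK cell maturation, had 587 and 89 UMIs (156 and 176 CPM), a log2 ratio of 0.18 (−0.17 to 0.49). Il18r1 (99.8 and 107 CPM) had one of 0.11 (−0.34 to 0.51) and Il12rb1 (16.5 and 15.8 CPM) one of 0.01 (−1.34 to 1.0), and Il12rb2 (79.3 and 57.2 CPM) had one of −0.45 (−1.07 to 0.08). Ifng was the 1 gene of 8 past 2-fold upward and none was past it downward, against 9.86% and 7.01% of all 8963 tested genes. The regulators had a median log2 ratio of −0.40, and all tested genes one of 0.07.

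**Figure D2:**
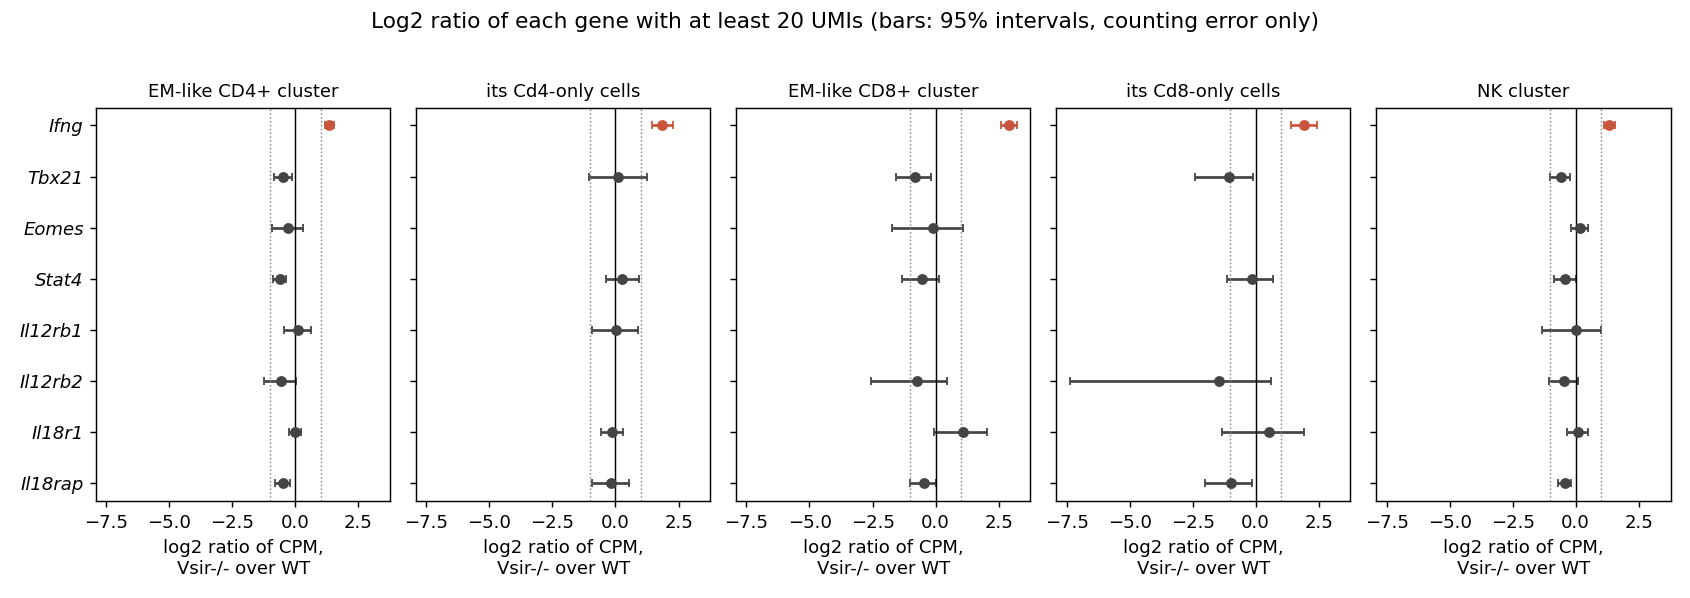
Log2 ratio of CPM, Vsir-/- over WT, of each gene with at least 20 UMIs over both libraries, in 3 clusters, in the Cd4-only cells of the EM CD4+ cluster, and in the Cd8-only cells of the EM CD8+ cluster, with 95% intervals for counting error as bars. Ifng (red) lies between 1.34 and 2.92 in every panel, no regulator (gray) lies above 1.07 or above Ifng in its panel, and the dotted lines mark 2-fold.

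Non-EM CD8+ cells had Ifng above their WT level at a low count. There were 15 UMIs in 659 WT cells (2.96 CPM) and 25 UMIs in 50 Vsir-/- cells (56.5 CPM), a log2 ratio of 4.23 (3.27 to 5.28). In the Vsir-/- library 9 of the 50 cells had a UMI, 1 cell held 9 of the 25, and the level without it was 36.9 CPM. Eomes, with 192 and 22 UMIs (37.9 and 49.8 CPM; log2 ratio, 0.42; −0.32 to 1.03), was the member of the T-box pair with more UMIs in both libraries. Stat4, with 99.4 and 67.9 CPM, had a log2 ratio of −0.53 (−1.13 to −0.02). Of 6 genes with at least 20 UMIs, Ifng was past 2-fold upward and none downward, against 11.1% and 9.66% of all tested genes, and the regulators had a median log2 ratio of 0.15.

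The share of cells with Ifng was compared after every cell had been thinned to 1000 UMIs. The share was 15.4% (interval, 12.3% to 19.0%) in WT and 29.0% (23.4% to 35.2%) in Vsir-/- EM CD4+ cells. It was 12.4% and 39.3% in EM CD8+ cells and 13.6% and 34.3% in NK cells. Neutrophils had 0.596% and 0%, and WT B cells 0.845%, so the shares of these 3 clusters lay above the background. Before thinning, the shares were 36.8% and 58.6%, 38.6% and 85.7%, and 42.4% and 76.1%.

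Cells with Ifng also held more of it on average in the Vsir-/- library. After thinning, the mean number of Ifng UMIs per positive cell was 1.42 in WT and 1.83 in Vsir-/- EM CD4+ cells, 1.12 and 2.64 in EM CD8+ cells, and 1.41 and 1.78 in NK cells. These means rest on 74 and 70, 24 and 11, and 79 and 23 positive cells, and they have no interval. A few cells can set them, since 1 Vsir-/- EM CD8+ cell held 52 of that cluster's 215 Ifng UMIs as deposited. The UMIs were unevenly spread over cells. As deposited, 21 of 244 Vsir-/- EM CD4+ cells, 3 of 28 EM CD8+ cells, and 10 of 67 NK cells held at least 50% of the Ifng UMIs of their cluster, against 28 of 489, 17 of 197, and 42 of 594 WT cells.

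**Figure D3:**
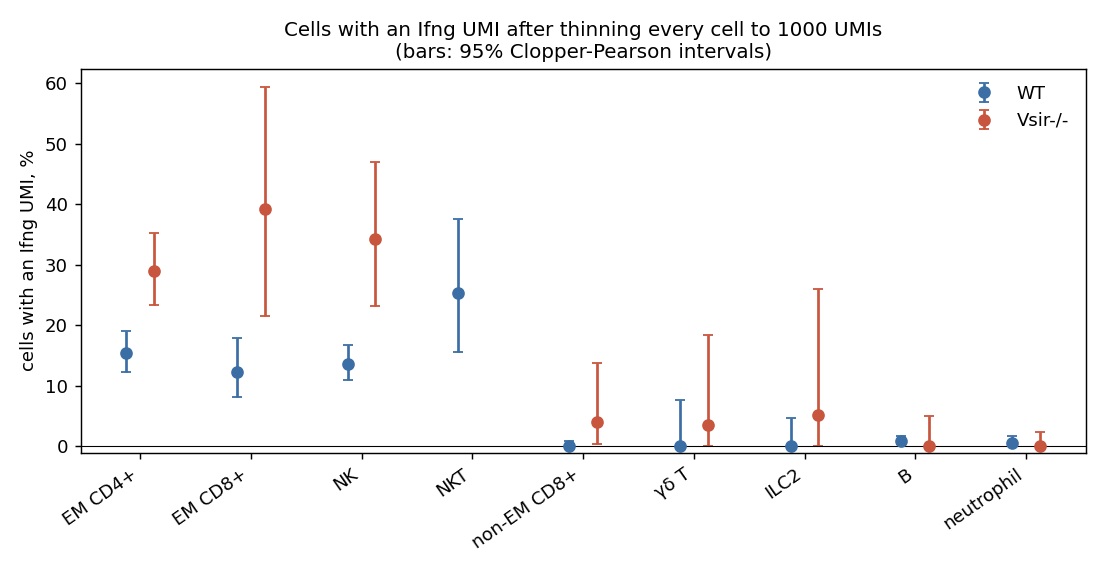
Percent of cells with at least 1 Ifng UMI after every cell was thinned to 1000 UMIs, by cluster, in the WT (blue) and Vsir-/- (red) libraries, with 95% Clopper-Pearson intervals as bars. The Vsir-/- shares of EM CD4+ (29.0%), EM CD8+ (39.3%), and NK cells (34.3%) lie above the WT shares of 12.4% to 15.4%, and B cells and neutrophils lie near 0.

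A ratio of Ifng UMIs to regulator UMIs in the same cells does not depend on the total that CPM are taken against. Per UMI of the 7 regulators together, EM CD4+ cells had 0.302 Ifng UMIs in the WT and 0.979 in the Vsir-/- library, a log2 change of 1.70 (1.49 to 1.91). The values were 0.187 and 0.574 in NK cells (log2 change, 1.62; 1.36 to 1.88) and 0.201 and 2.11 in EM CD8+ cells (3.39; 2.94 to 3.83). In non-EM CD8+ cells they were 0.0146 and 0.305. Every one of these intervals lay above 0.

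These changes follow from the log2 ratios given above and are no separate support. In the 3 clusters of effector cells, the change was above 0 against each regulator with at least 20 UMIs. Some intervals elsewhere crossed 0. Examples are Il18r1 in Cd8-only EM CD8+ cells (−0.10 to 3.32) and, in proliferating cells with a T cell transcript, Il12rb1 (−0.98 to 0.78) and Il18r1 (−0.28 to 0.73). Ifng UMIs per Tbx21 UMI were 2.09 and 7.46 in EM CD4+ cells, 0.750 and 10.2 in EM CD8+ cells, and 1.05 and 4.02 in NK cells. Per Eomes UMI they were 6.62 and 20.6, 4.15 and 35.8, and 1.2 and 2.71. The smallest log2 change in the 3 clusters was 1.17 (0.77 to 1.57), against Eomes in NK cells, and the greatest was 3.78, against Il12rb2 in EM CD8+ cells, where the regulator had 5 Vsir-/- UMIs.

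**Figure D4:**
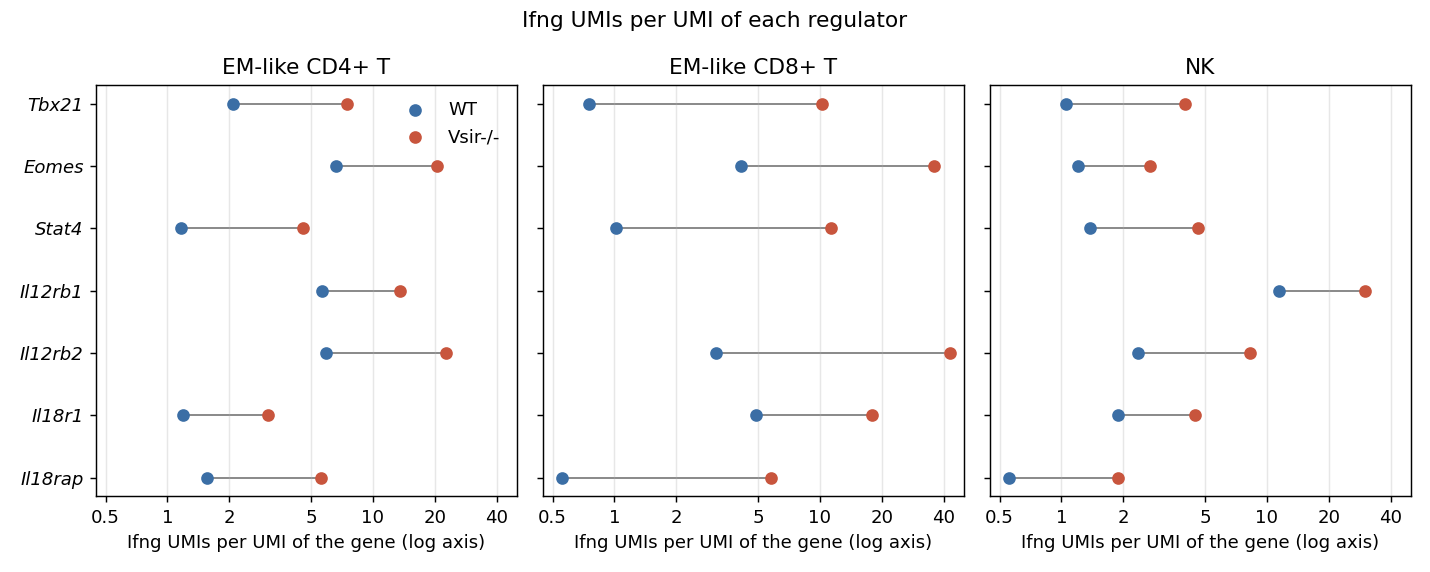
Ifng UMIs per UMI of each regulator (log axis) in the WT (blue) and Vsir-/- (red) libraries in 3 clusters, with a line joining both values of a gene. Every red point lies to the right of its blue point, from 1.05 to 4.02 per Tbx21 UMI in NK cells for example; Il12rb1 in EM CD8+ cells is left out at 11 and 2 UMIs.

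The balance within gene pairs separated the clusters. Tbx21 made up 84.7% of the Tbx21 and Eomes UMIs in WT EM CD8+ cells, 76.0% in EM CD4+ cells, 53.4% in NK cells, and 19.7% in non-EM CD8+ cells. The intervals of NK cells (50.6% to 56.2%) and non-EM CD8+ cells (14.8% to 25.3%) were apart from each other and from those of both EM clusters. In Vsir-/- NK cells the share was 40.3% (32.3% to 48.6%), with 60 Tbx21 and 89 Eomes UMIs, so Eomes had more UMIs than Tbx21 in that library as deposited. In a single draw of 1000 UMIs per cell this was lost. The log2 ratio of Eomes went from 0.18 to −0.76 there, against −0.51 for Tbx21. Few cells had either gene in that draw. Vsir-/- NK cells with Ifng had Eomes in 1 and Tbx21 in 3 of 23, and those without had each in 5 of 44. At 2000 UMIs more cells had Eomes. Those with Ifng had Eomes in 9 and Tbx21 in 4 of 30, and those without in 11 and 10 of 35. In the other clusters with both values, the Vsir-/- share lay within 10 percentage points of the WT share.

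Il18rap made up 89.8% of the UMIs of both IL-18 receptor chains in WT EM CD8+ cells, 78.0% in the NKT cluster, 77.3% in NK cells, and 43.3% in EM CD4+ cells. It made up 28.7% in non-EM CD8+ cells, 7.87% in γδ T cells, and 5.41% in non-EM CD4+ cells. The order of the clusters was the same in the Vsir-/- library for EM CD8+ (75.5%), NK (70.3%), EM CD4+ (35.5%), non-EM CD8+ (29.2%), and γδ T cells (8.82%). Within the EM CD8+ cluster the share was lower in the Vsir-/- library, with 37 of 49 UMIs (61.1% to 86.7%) against 255 of 284 (85.7% to 93.0%).

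Il12rb2 made up 82.8% of the UMIs of both IL-12 receptor chains in WT NK cells, 80.4% in EM CD8+ cells, and 48.8% in EM CD4+ cells. In WT γδ T cells it made up 0 of 22 UMIs (interval, 0% to 15.4%). The Vsir-/- shares were 78.4% in NK cells and 37.4% in EM CD4+ cells, with intervals that overlapped those of the WT shares.

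**Figure D5:**
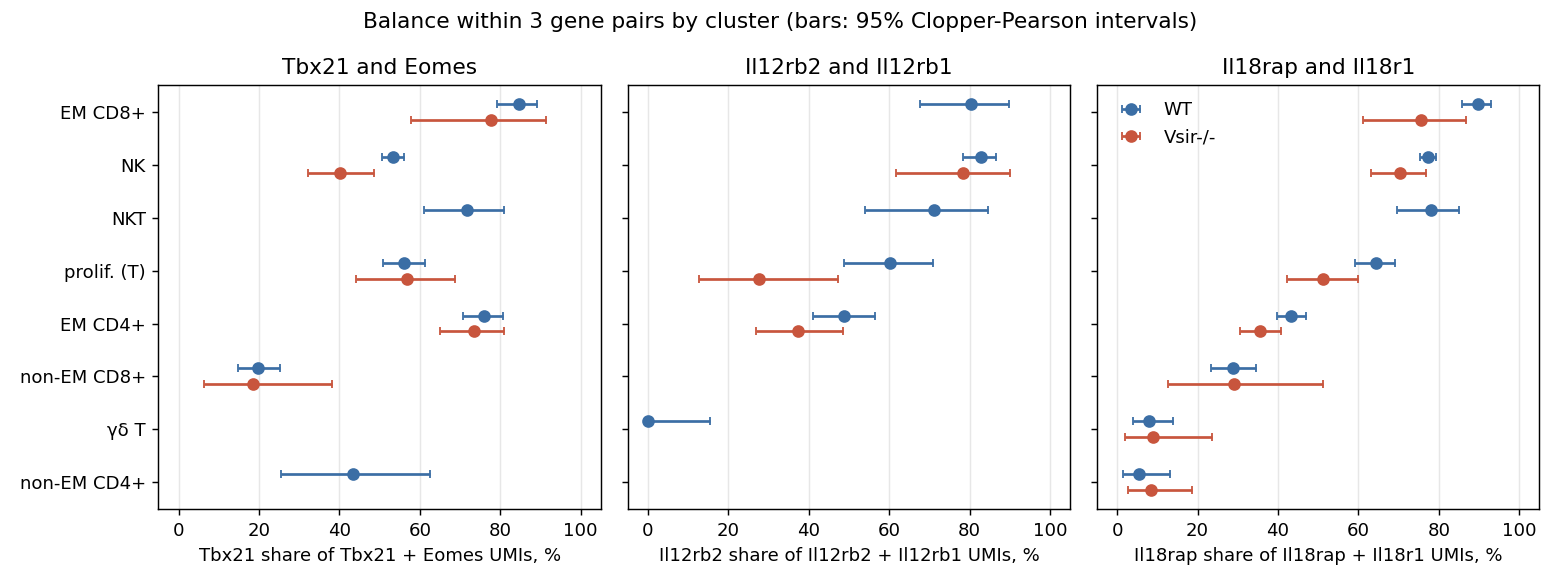
Share of Tbx21 in Tbx21 and Eomes UMIs, of Il12rb2 in Il12rb2 and Il12rb1 UMIs, and of Il18rap in Il18rap and Il18r1 UMIs (percent) by cluster in the WT (blue) and Vsir-/- (red) libraries, with 95% Clopper-Pearson intervals as bars. NK cells go from 53.4% to 40.3% Tbx21, and the Il18rap share runs from 89.8% in WT EM CD8+ cells to 5.41% in WT non-EM CD4+ cells; pairs with under 20 UMIs are left out.

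Whether single cells with Ifng also had a regulator was asked within each library, in cells thinned to 1000 UMIs. Tbx21 was found in 12.2% of the WT EM CD4+ cells with Ifng (9 of 74) and 9.88% of those without (40 of 405), and their intervals overlapped. In WT NK cells the shares were 21.5% and 19.0%. No regulator in any of the clusters compared had intervals that were apart at this depth. Few cells had a regulator UMI, for example Il12rb1 in 2 of the 74 WT EM CD4+ cells with Ifng. The intervals were therefore wide, and their overlap cannot show that cells with and without Ifng were alike. At 2000 UMIs, Tbx21 in Vsir-/- EM CD4+ cells was found in 20% of the cells with Ifng (12.1% to 30.1%) and 6.08% of those without (2.82% to 11.2%), and no other pair of intervals was apart.

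Many cells with Ifng had no UMI of either T-box factor. As deposited, this held for 49.4% of the 180 WT and 53.8% of the 143 Vsir-/- EM CD4+ cells with Ifng, 35.5% of 76 and 54.2% of 24 EM CD8+ cells, and 19.4% of 252 and 21.6% of 51 NK cells. A cell without a UMI may still express the gene. In NK cells, 88 of the 252 WT and 21 of the 51 Vsir-/- cells with Ifng had both factors.

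Proliferating cells also differed in makeup between the libraries. Of 118 WT cells 114 had a T cell transcript, and of 189 Vsir-/- cells 66 had one, and 99.1% and 80.3% of those cells had a Ptprc UMI. Among the cells with a T cell transcript, Ifng was at 219 CPM in the WT and 177 CPM in the Vsir-/- library, a log2 ratio of −0.31 (−0.54 to −0.09). A single WT cell held 208 of the 434 Ifng UMIs, and without the top cell of each library the ratio was 0.39. No direction can be given for Ifng in these cells.

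Of the 7 regulators, 6 were lower beyond counting error in the Vsir-/- proliferating cells with a T cell transcript. All 7 had a log2 ratio below 0, against 38.0% of all tested genes. Eomes (80.4 and 20.1 CPM; log2 ratio, −1.98), Tbx21 (103 and 26.3 CPM; −1.95), Il12rb2 (25.3 and 5.55 CPM; −2.12), Il18rap (119 and 47.9 CPM; −1.31), and Stat4 (72.8 and 31.2 CPM; −1.21) were past 2-fold. Il18r1 had a log2 ratio of −0.53 (−0.98 to −0.10), and Il12rb1 (16.7 and 14.6 CPM) one of −0.18 (−1.06 to 0.64), which crossed 0. These 5 of 8 genes were past 2-fold downward and none upward, against 6.21% and 24.2% of all 10003 tested genes. Twist1, a transcription factor that is on the wider list below, had 0 UMIs in the WT and 29 in the Vsir-/- cells. The tubule list was at 161 and 2278 CPM. The 5 NK genes were found in 76.3% of the WT and 25.8% of the Vsir-/- cells (1367 and 248 CPM), with none at 0 in either library. The part of the NK transcripts and of cells of other types in these values was not tested.

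Non-EM CD4+ cells were low in all of these genes but Stat4 and Il18r1. Of their 349 Vsir-/- cells, 116 had a T cell transcript, and the comparison was made in cells with one. Stat4 had 199 and 47 UMIs (44.7 and 38.5 CPM; log2 ratio, −0.20; −0.70 to 0.25), and Il18r1 had 70 and 22 UMIs (15.7 and 18.1 CPM; log2 ratio, 0.22; −0.56 to 0.91). Neither differed beyond counting error in CPM of these cells. The T cell list was at 5498 CPM in the WT and 1504 CPM in the Vsir-/- cells, and the tubule list at 98.3 and 7380 CPM. The part of the tubule transcripts in these values was not tested. Ifng had 7 and 10 UMIs, and Tbx21 had 13 and 1.

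The γδ T cells and ILC2 had little Ifng in either library. Ifng had 2 and 3 UMIs in γδ T cells and 8 and 1 in ILC2, where 1 WT cell held all 8. Il18r1 of γδ T cells was at 417 CPM in the WT library (117 UMIs over 46 cells) and at 175 CPM in the Vsir-/- library (31 UMIs over 28 cells), a log2 ratio of −1.24 (−1.87 to −0.67). The share of γδ T cells with an Il18r1 UMI after thinning was 41.3% (27.0% to 56.8%) and 25% (10.7% to 44.9%). Stat4 (60.6 and 107 CPM; log2 ratio, 0.82; −0.20 to 1.86) and Il12rb1 (78.4 and 45.1 CPM) had intervals across 0.

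A wider list of 40 genes of the type 1 pathway, with cytokines, signal transducers, other transcription factors, and feedback regulators, was read in the same way. In EM CD4+ cells 33 of the 40 had at least 20 UMIs, with 5 past 2-fold upward and none downward, where 10.4% and 5.41% of all tested genes were. In NK cells 28 had, with none past 2-fold in either direction, against 9.86% and 7.01%. In EM CD8+ cells 4 of 24 were past 2-fold upward and 3 downward, against 6.03% and 9.98%. The list's median log2 ratio was −0.08, −0.07, and 0.06 in the 3 clusters.

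The genes with the most UMIs among those past 2-fold in EM CD4+ cells were Gadd45b and Bhlhe40. Gadd45b, a stress-induced activator of p38 signaling that IL-12 and IL-18 induce in T cells, had 299 and 463 UMIs (107 and 294 CPM; log2 ratio, 1.46; 1.25 to 1.67). Bhlhe40, a transcription factor that sustains cytokine production in T cells, had 465 and 609 UMIs (166 and 386 CPM; log2 ratio, 1.22; 1.04 to 1.40). Both were also higher in Vsir-/- NK cells, at 80.9 and 134 CPM for Gadd45b and 273 and 450 CPM for Bhlhe40, and in EM CD8+ cells, with log2 ratios of 1.51 and 0.93. Gadd45b and Bhlhe40 kept their direction in the Cd4-only cells of the EM CD4+ cluster, with log2 ratios of 1.67 and 1.72.

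Other genes of the wider list stood on the side of the regulators. Runx3, which acts with T-bet at the Ifng locus, was at 233 and 174 CPM in EM CD4+ cells (log2 ratio, −0.42; −0.63 to −0.22) and 264 and 191 CPM in NK cells (−0.46; −0.78 to −0.16). Zeb2, a factor of terminal effector cells, was at 1121 and 506 CPM in EM CD8+ cells (−1.14; −1.49 to −0.82) and 576 and 292 CPM in NK cells (−0.98; −1.23 to −0.74). Il2rb, a receptor chain for IL-2 and IL-15, was at 712 and 421 CPM in EM CD4+ cells (−0.76; −0.89 to −0.63). The NK gene list was also lower in the Vsir-/- cells of these clusters, as given above, and its part in these values was not tested.

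The genes whose levels ran most like Ifng, Tbx21, and Eomes were sought among 10461 genes over 15 pairs of lymphoid cluster and library, on log2(CPM + 10). These correlations are descriptions, since the 15 points share 2 libraries and differ in depth. Whole clusters were used, among them the Vsir-/- non-EM CD4+, proliferating, and B cell clusters, in which many cells lacked T cell or B cell transcripts. Clusters with under 50 cells were left out, namely the Vsir-/- EM CD8+ cells (28), the γδ T cells (46 WT and 28 Vsir-/-), and the Vsir-/- ILC2 (19). The genes most like Ifng included Ube2j2 (Pearson r = 0.933), the chemokine gene Xcl1 (0.931), Lrrfip1 (0.930), and Sin3b (0.928). Its r was 0.883 with Tbx21, 0.881 with Il18rap, and 0.516 with Stat4.

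Tbx21 ran with genes of NK cells, namely Cd200r4 (r = 0.987), Klre1 (0.981), Il18rap (0.979), Klra7 (0.979), and Klrc2 (0.978), of which Klre1, Klra7, and Klrc2 encode NK lectin receptors. Among the 8 genes, Il18rap and Il12rb2 (r = 0.969) were closest to it. Eomes was most like Cst7 (0.927), Klrd1 (0.926), Prf1, which encodes perforin (0.902), Usp48 (0.897), and Nkg7 (0.896).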

How the data were processed

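Kidney cells of 1 WT and 1 Vsir-/- library with NTN were profiled with the 10× Genomics 3′ chemistry. The submitters' processing notes list Cell Ranger 3.1.0, Seurat 3.2.3, R 4.0.3, and the genome build mm9. The authors kept genes found in at least 5 cells and cells with at least 200 UMIs and at most 10% mitochondrial UMIs, and assigned the cells to named clusters. The files deposited by the authors hold raw UMI counts for each gene in each cell. The mitochondrial percent deposited by the authors served for the alternative limit of 5%. Any removal of doublets is not given in the sources used here. No doublet caller was run, and cells above the 95th percentile of UMIs were left out as an alternative. Coordinates of the cells on a plot were not used, and the number of other columns of sample values left unmapped was 0.

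The 8 genes, the wider list, and the marker lists were chosen with earlier results of these data known. For each cluster of each library, the UMIs of a gene were summed and divided by the total UMIs of that cluster to give CPM, with exact Poisson intervals for levels, Clopper-Pearson intervals for shares, and exact conditional intervals for log2 ratios (0.5 UMIs added to each sum). A gene was tested against the 2-fold limit where it had at least 20 UMIs over both libraries of a cluster. Cells are not replicates, so genotypes were compared without p-values. A count of 0 was read as allowing up to 3 counts. Cells were thinned without replacement with a fixed seed, which left out 167 WT and 78 Vsir-/- cells with under 1000 UMIs. Depth was 32799550 UMIs in the WT and 18601189 UMIs in the Vsir-/- library. The T cell list has 6 genes. Named genes are the 8 genes, the wider list, the 5 genes most like Ifng, Tbx21, and Eomes among those with at least 200 lymphoid UMIs (clusters with at least 50 cells), and Vsir. A gene like Ifng by this rule is not reported here. Promoter windows came from RefSeq (GRCm38.p6) and were matched by symbol, and no coordinates of the files' build were used. The intervals of log2 ratios were tested on simulated Poisson counts for the EM CD4+, EM CD8+, and NK clusters. The simulation had no spread between cells, so it cannot show how the intervals hold where few cells hold many UMIs. The work used matplotlib 3.10.9, pandas 2.3.3, scipy 1.17.1, and numpy 2.4.6 in Python 3.11.15.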

Additional observations from a re-analysis of the deposited data

Results flagged for a closer look

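Both IL-18 receptor chains were also found in clusters outside the lymphoid cells. In the WT library, 25 basophils had Il18r1 at 529 CPM and Il18rap at 447 CPM, above the median over WT lymphoid clusters of 51.6 and 77.3 CPM, and the Vsir-/- library had 2 basophils. Neutrophils had Il18rap at 122 CPM in the WT and 79.8 CPM in the Vsir-/- library, against lymphoid medians of 77.3 and 16.9 CPM, whereas Il18r1 was at 28.6 and 6.43 CPM there. After thinning to 1000 UMIs, 8.75% of WT and 7.84% of Vsir-/- neutrophils had an Il18rap UMI. Neutrophils are therefore no background for Il18rap.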

How the results depend on the processing

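No paired analysis was possible because each genotype has 1 library. Ifng kept its direction in EM CD4+, EM CD8+, non-EM CD8+, and NK cells under every alternative run. Its log2 ratio left the counting interval in EM CD4+ cells at a mitochondrial limit of 5% (1.52) and in Cd4-only cells (1.84), in EM CD8+ cells in Cd8-only cells (1.93), and in NK cells with the mean of CPM over cells (1.66) and after thinning (1.69). In all proliferating cells the log2 ratio of −1.89 became −0.31 in cells with a T cell transcript, −1.63 at a limit of 5%, −1.21 without the top cell of each library, −1.14 with the mean of CPM, −1.0 after thinning, −2.40 less the median of all genes, and −0.53 in cells with Ptprc. It reversed to 0.49 without cells above the 95th percentile of UMIs and to 0.39 in cells with a T cell transcript without the top cells. Of the 20 regulator ratios in EM CD4+, EM CD8+, and NK cells, 15 were below 0 as reported. Of all tested genes, 49.97%, 52.8%, and 45.2% were below 0 in these clusters. The 20 ratios repeat the same genes over clusters of the same libraries, so they are not independent. Tbx21 (0.10) and Stat4 (0.26) reversed in the Cd4-only cells of the EM CD4+ cluster, Stat4 in NK cells (0.46) and Il12rb1 in proliferating cells (1.22) reversed after thinning, and the cause was not tested. In those Cd4-only cells the intervals of Tbx21 and Stat4 crossed 0, and that of Tbx21 included its whole-cluster value. Il18rap moved from −0.50 to −0.19 there, outside its whole-cluster interval (−0.81 to −0.20). The thinned values come from a single draw with few UMIs. In it, WT proliferating cells with a T cell transcript had Il12rb1 in 0 of 10 cells with Ifng and 1 of 104 without. At 2000 UMIs, Stat4 was found in 24.6% of WT and 26.7% of Vsir-/- NK cells with Ifng, and in 24.9% and 22.9% of those without. Ratios whose intervals crossed 0 as reported also left those intervals with another sign. After thinning these were Eomes in EM CD8+ cells (1.69 from −0.10) and in NK cells (−0.76 from 0.18) and Il12rb2 in NK cells (0.20 from −0.45). Il12rb2 was at 1.13 in Cd4-only EM CD4+ cells, with 5 WT and 10 Vsir-/- UMIs (interval, −0.49 to 3.09). Eomes was at 1.40 in Cd8-only EM CD8+ cells, with 13 and 6 UMIs (−0.35 to 2.83). Both fell under the limit of 20 UMIs, and both intervals crossed 0. With at least 50 UMIs required, the number of genes past 2-fold upward was 1 in EM CD8+ and 0 in non-EM CD8+ cells, since Il18r1 and Ifng then had too few UMIs. The restrictions to Cd4-only cells, Cd8-only cells, cells with Ptprc, and cells with a T cell transcript without the top cells were chosen after the data were seen. Low counts limit the regulators, for example in the 28 Vsir-/- EM CD8+ cells, where Il12rb2 and Eomes had 5 and 6 UMIs.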
